A study of Mus musculus with 6 samples.

Results

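Lef1, Tcf7, Sox4, Myb, Runx1, Runx2, Runx3, Gfi1 and Meis1 encode transcription factors that are active in blood stem cells, in lymphoid progenitors or in early B and T cells. These 9 genes were taken by name and followed in pre-B cells with and without Mef2c, through every probe set that the annotation of the array gives to that gene alone. A probe set is a group of short DNA probes that together read 1 transcript. Of the 9 genes, 6 had such a probe set (Lef1, Sox4, Myb, Runx1, Runx3 and Gfi1, with 1 each), among 17372 genes named in this way. All 6 passed the filter on dim signal, which kept 11271 genes for the test. Tcf7, Runx2 and Meis1 were not analysed here.

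Pre-B cells were sorted as B220+IgM-CD43- cells from bone marrow, and their RNA was read on Affymetrix arrays, 3 from control mice and 3 from Mef2c-deficient mice of 9 months. The Mef2c-deficient mice were Vav-Cre Mef2c fl/fl, in which the Vav promoter drives Cre in all blood-forming cells, so the gene was lost before the B lineage arose. Controls, by the study's methods, were of matched age and of any of 3 genotypes: without Cre and either Mef2c fl/fl or Mef2c fl/+, or with Vav-Cre and 1 intact allele (Mef2c fl/+). Which of them each control array held is not given in the sources used here, and neither is the sex of the mice. The level of Mef2c was not analysed here, and the genotype labels were not checked against it. Samples are described as independent, but animals are not named, so a p-value reflects only how far these samples spread, and precision is limited by having 3 arrays a group.

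Lef1 and Tcf7 are HMG-box partners of beta-catenin in Wnt signalling, and Lef1 is known for sustaining the survival and division of early B cells. Sox4 is another HMG-box factor that pro-B cells require, and Myb is needed for the pro-B stage and for the response to interleukin 7. Runx proteins bind DNA together with the shared subunit Cbfb; Runx1 is required for blood stem cells to form and for early B-cell development, whereas Runx3 is known from CD8 T cells, NK cells and dendritic cells. Gfi1 is a repressor in stem cells, granulocytes and lymphoid progenitors that works through the LSD1 demethylase, and Meis1 is a cofactor of HOX proteins in stem cells.

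All levels below are log2 of the deposited intensity, and a difference is the Mef2c-deficient mean minus the control mean on that scale. The base in which the deposited values left the log scale is not settled, since the highest value (2144602) is 21.03 as log2 and 14.58 as a natural log. If the base was e, every difference below is 0.69 times as large, with the same direction and p-value, so folds are given for both bases. The 11271 genes were lower as a whole in the Mef2c-deficient arrays, with a median difference of -0.36, and 62.3% of them had a negative difference. Each member is therefore also set against that median, which depends on the filter. The median was 0.07 with no filter on dim probe sets (17372 genes) and -0.54 with a filter at the 60th percentile. Relative to it, Lef1 was at -1.3 with no filter and at -0.68 with the 60th percentile. The bacterial bioB spikes, which are added to the hybridisation mix and not made by the cells, were 0.95 to 2.73 higher in Mef2c-deficient arrays than the control mean. The part of this in the overall shift was not tested.

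Among the arrays, Mef2c-deficient replicate 3 stood apart. Over all genes tested, the SD of its deviations from the mean of its group was 0.788, against 0.289 to 0.583 in the other 5 arrays. It also held the highest mean level of the markers of several other cell types. Markers of plasmacytoid dendritic cells, which can carry B220 without IgM, averaged 9.72, 9.79 and 11.14 in control replicates 1 to 3 and 10.99, 11.62 and 13.66 in Mef2c-deficient replicates 1 to 3, and 14 of 14 were higher in the Mef2c-deficient group. Neutrophil and granulocyte precursor markers were at 8.29 to 10.44 in controls and at 9.16, 8.53 and 13.47 in the Mef2c-deficient arrays. Mpo, a granule enzyme of early granulocytes, was at 5.81 to 8.80 in 5 arrays and at 15.25 in Mef2c-deficient replicate 3. T-cell markers lay between 7.35 and 7.83 in controls and between 8.11 and 9.81 in Mef2c-deficient arrays, and 12 of 12 were higher, 5 of them below the filter. The pre-B markers were at 15.51 to 16.16 in controls and 14.83 to 15.05 in Mef2c-deficient arrays. Of these 14 genes, 12 had a lower and 2 a higher mean, with a median difference of -1.09, or -0.73 relative to all genes. With limma, 5 (35.7%) were lower at an unadjusted p under 0.05, where 20.9% of all genes were. The brightest, Cd79b, a signalling subunit of the pre-B-cell receptor, was at 18.76 to 19.22 and 18.20 to 19.06, so this marker was high in both groups. In RNA from a whole sorted sample, fewer cells of a type and less RNA per cell cannot be told apart, and this holds for every difference below.

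Of the 6 members, 5 had a lower mean in the Mef2c-deficient arrays (Lef1, Sox4, Myb, Runx1 and Gfi1) and 1 a higher mean (Runx3). Their median difference was -1.12, or -0.76 relative to all genes tested, close to the -0.73 of the pre-B markers. With limma, 4 members were lower at an unadjusted p under 0.05, where 20.9% of all genes were, and 0 were higher, where 5.32% of all genes were. After Benjamini-Hochberg adjustment 0 of the 6 passed 0.05, where 0.0177% of all genes did. The groups did not overlap for 3 members (Lef1, Sox4 and Runx1), all lower, which was so for 27.1% of all genes. Without Mef2c-deficient replicate 3, 4 members were lower and 2 higher, with a median of -0.69, against -0.32 for all genes. In that fit 2 of the 6 were lower at an unadjusted p under 0.05, as were 2668 of the 11271 genes. The counts also depend on the scaling of the arrays. After quantile normalization, cyclic loess or centring on the median, Lef1 alone kept an unadjusted p under 0.05 and non-overlapping groups, while the direction of each of the 6 members stayed as it was.

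**Figure D1:**
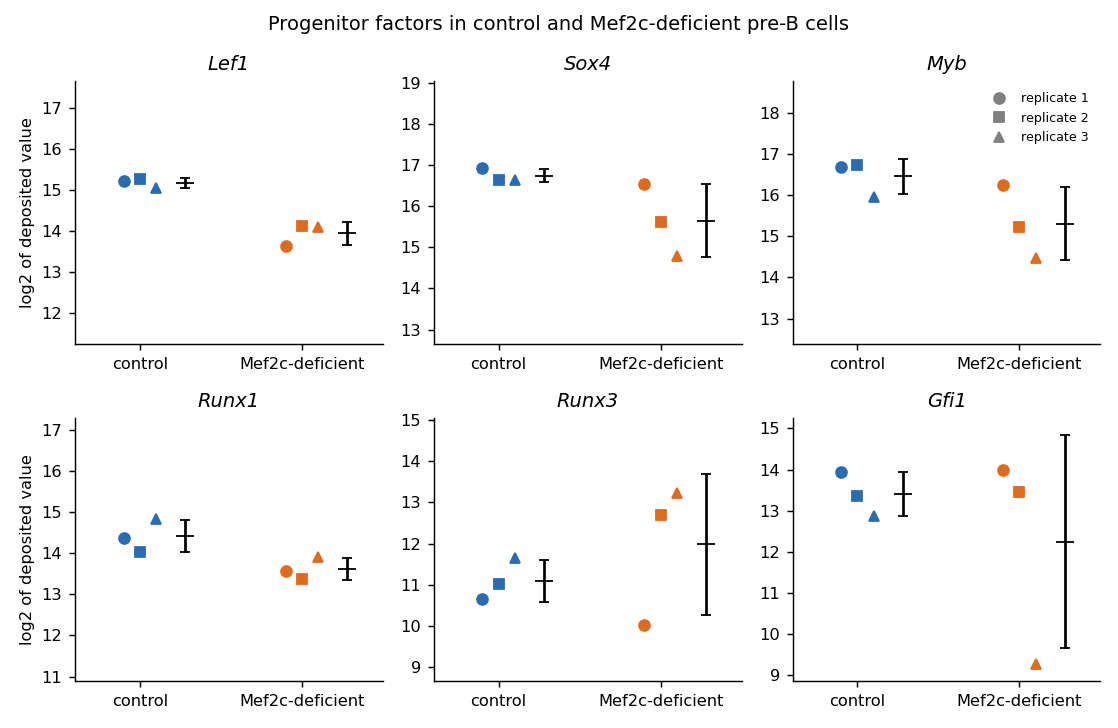
Level of the 6 members in each array (y axis, log2 of the deposited value; all panels span the same height), with control arrays in blue and Mef2c-deficient arrays in orange, a symbol for each replicate number, and a black bar for the group mean ± SD (n = 3). Lef1 and Runx1 sit lower in all 3 Mef2c-deficient arrays, Sox4 and Myb spread downwards with replicate 3 lowest, Runx3 is high in Mef2c-deficient replicates 2 and 3 only, and Gfi1 is low in Mef2c-deficient replicate 3 only.

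The plot of levels by array shows 3 patterns: a shift of the whole group in Lef1 and Runx1, a spread downwards in Sox4 and Myb, and values set by 1 or 2 arrays in Gfi1 and Runx3.

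Lef1 had the smallest p of the members. Its level was 15.21, 15.27 and 15.04 in the control arrays and 13.63, 14.13 and 14.09 in the Mef2c-deficient arrays. The groups were separated by 0.91, from the lowest control to the highest Mef2c-deficient array, and the SDs of both (0.12 and 0.28) were small beside it. The mean went from 15.18 ± 0.12 to 13.95 ± 0.28 (SD, n = 3 each). The difference was -1.22 (SE 0.28), a 2.33-fold lower value in base 2 or 1.80-fold in base e. Its unadjusted p was 0.00286 and its adjusted p 0.0954, so Lef1 did not pass the threshold set over all genes. A lower difference than that of Lef1 was seen in 10.8% of genes, and relative to the median of all genes it was -0.87. Without Mef2c-deficient replicate 3 the difference was -1.29 (adjusted p = 0.0629). Among the T-cell markers, a lineage in which Lef1 is also on, the direction was the opposite one, with higher levels in all 3 Mef2c-deficient arrays. The part of T cells in the Lef1 level was not tested.

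The promoter window of Lef1 that starts farthest upstream is shown because Lef1 is the member with the clearest difference. It spans chr3:131110047-131110346, plus strand, in RefSeq's GRCm38.p6, from 250 bases before to 50 bases after the start of transcription. Capitals mark a match to a MYB motif (TAACNG, here TAACAG) and to an E-box (CANNTG, here CAAGTG), the site read by E proteins.
Lef1 promoter: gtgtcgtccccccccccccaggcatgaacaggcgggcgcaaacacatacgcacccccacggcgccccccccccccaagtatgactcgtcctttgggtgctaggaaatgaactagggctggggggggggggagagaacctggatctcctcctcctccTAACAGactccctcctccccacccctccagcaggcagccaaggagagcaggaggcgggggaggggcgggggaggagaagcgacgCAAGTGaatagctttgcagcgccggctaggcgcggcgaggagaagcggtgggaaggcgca
Of 32851 such windows, 49.7% held a MYB match and 72.3% an E-box on either strand, so both are common.

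Sox4 and Myb followed each other closely from array to array. The level of Sox4 was 16.92, 16.65 and 16.65 in controls and 16.55, 15.62 and 14.79 in the Mef2c-deficient arrays. The groups did not overlap, but the gap was only 0.10, since Mef2c-deficient replicate 1 lay close to the controls. The Sox4 mean was 16.74 ± 0.16 in controls and 15.65 ± 0.88 in Mef2c-deficient cells (SD, n = 3 each), and the SD was 5.61 times that of the controls. The difference was -1.09 (SE 0.45), or 2.12-fold lower in base 2 and 1.69-fold in base e, with an unadjusted p of 0.0448 and an adjusted p of 0.181. Against the control mean, the 3 Mef2c-deficient arrays lay at -0.19, -1.12 and -1.95. Without Mef2c-deficient replicate 3 the Sox4 difference was -0.66 (unadjusted p = 0.104), and that array had the highest dendritic, granulocyte and T-cell markers. The part of those cells in the result was not tested.

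Myb was at 16.69, 16.73 and 15.96 in controls and at 16.25, 15.22 and 14.47 in Mef2c-deficient arrays. Mef2c-deficient replicate 1 lay above control replicate 3, so the groups overlapped. The mean of Myb was 16.46 ± 0.43 in controls and 15.31 ± 0.89 in Mef2c-deficient cells (SD, n = 3 each). Its difference was -1.15 (SE 0.49), 2.21-fold lower in base 2 or 1.73-fold in base e, with an unadjusted p of 0.0488 and an adjusted p of 0.188. The 3 Mef2c-deficient arrays were at -0.21, -1.23 and -1.99 from the control mean, nearly the values of Sox4. Between arrays of the same replicate number, which deviated together though the labels do not pair them, Myb was lower in 3 of 3 pairs. The differences were -0.44, -1.50 and -1.49, and the fit with a replicate block gave an unadjusted p of 0.0154 (adjusted p = 0.115). Leaving out Mef2c-deficient replicate 3 gave -0.72 (unadjusted p = 0.124), and leaving out Mef2c-deficient replicate 1 gave -1.61 (unadjusted p = 0.00667). Over the 6 arrays the levels of Sox4 and Myb had a Pearson r of 0.961, and 0.921 after the group means were taken out. This is a description over 6 arrays that share 2 groups and the same scaling, and it is the highest value among the 15 pairs of members.

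The Sox4 window spans chr13:28953650-28953949, minus strand, and the Myb window spans chr10:21160935-21161234, minus strand, in the same build. They are shown together because the levels of both genes moved together over the arrays. The capitals mark the E-box of each, CAGCTG in Sox4 and CATCTG in Myb, which was the only match to the 6 motifs searched in either window.
Sox4 promoter: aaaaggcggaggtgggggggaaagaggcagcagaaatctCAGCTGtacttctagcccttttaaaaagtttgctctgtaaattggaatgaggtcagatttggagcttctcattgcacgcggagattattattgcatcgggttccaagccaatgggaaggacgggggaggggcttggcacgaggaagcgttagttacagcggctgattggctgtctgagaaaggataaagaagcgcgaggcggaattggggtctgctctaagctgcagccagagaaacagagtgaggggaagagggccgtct
Myb promoter: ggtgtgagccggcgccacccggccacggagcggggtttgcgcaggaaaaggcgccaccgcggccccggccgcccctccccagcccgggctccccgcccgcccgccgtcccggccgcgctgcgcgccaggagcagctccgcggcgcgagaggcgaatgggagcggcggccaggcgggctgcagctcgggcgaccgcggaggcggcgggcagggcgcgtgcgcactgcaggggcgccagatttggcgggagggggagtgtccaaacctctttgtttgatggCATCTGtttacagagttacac
The Sox4 window has a GC content of 52.0% and the Myb window of 75.0%. Neither held a match to RUNX, TCF/LEF, SOX, MYB or MEF2 letters, which says nothing about binding elsewhere.

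Runx1 was lower in all 3 Mef2c-deficient arrays, at 13.57, 13.38 and 13.91 against 14.38, 14.04 and 14.84 in controls. The groups did not overlap, with a gap of 0.12. The mean of Runx1 went from 14.42 ± 0.40 to 13.62 ± 0.27 (SD, n = 3 each). The difference of -0.80 (SE 0.32) was 1.74-fold in base 2 or 1.47-fold in base e, with an unadjusted p of 0.0411 and an adjusted p of 0.176. It was -0.44 relative to all genes, and 27.2% of genes had a lower difference, so Runx1 was nearer to the overall shift than Lef1. Quantile normalization left -0.44 (unadjusted p = 0.174) and cyclic loess -0.28 (unadjusted p = 0.383). Without Mef2c-deficient replicate 3 it was -0.94 (unadjusted p = 0.0237), so the difference was as large without the array that stood apart.

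Runx3 had the opposite direction in its mean, but not in every array. Its level was 10.64, 11.01 and 11.65 in controls and 10.02, 12.69 and 13.23 in Mef2c-deficient arrays. Mef2c-deficient replicate 1 was the lowest of the 6 arrays and replicates 2 and 3 were the highest. The mean of Runx3 was 11.10 ± 0.51 in controls and 11.98 ± 1.72 in Mef2c-deficient cells (SD, n = 3 each). The difference was 0.88 (SE 0.80), 1.84-fold in base 2 or 1.53-fold in base e, with an unadjusted p of 0.305 and an adjusted p of 0.450. Without Mef2c-deficient replicate 1 it was 1.86 (unadjusted p = 0.00338, adjusted p = 0.0998), and without Mef2c-deficient replicate 3 it was 0.25 (unadjusted p = 0.743).

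Within each group, the mean levels of the dendritic, NK and T-cell lists had the order of Runx3, rising from replicate 1 to replicate 3. Single markers and the NK list are given beside Runx3 over all arrays. Siglech, a surface lectin of plasmacytoid dendritic cells, was at 12.59, 12.51 and 15.53 in controls and at 14.41, 16.55 and 18.54 in Mef2c-deficient arrays, so Mef2c-deficient replicate 1 was high for it against control replicates 1 and 2 but not for Runx3. Klrd1, an NK-cell receptor, was at 9.45, 9.63 and 10.29 in controls and at 10.08, 11.73 and 14.27 in Mef2c-deficient arrays. Ccl5, a chemokine of NK and T cells, was at 8.64, 8.13 and 11.01 in controls and at 8.41, 7.89 and 12.91 in Mef2c-deficient arrays, so it was lowest in replicate 2, where Runx3 was high. Over the whole NK list, 9 of 11 markers had a higher mean, with list means of 7.22, 7.30 and 8.24 in controls and 7.35, 7.61 and 9.38 in Mef2c-deficient arrays. Mef2c-deficient replicate 2 thus lay below control replicate 3 for this list, and Ncr1, a defining NK receptor, was at 4.38 to 6.86, below the filter. Cd4, which T cells and plasmacytoid dendritic cells carry, was at 8.93, 8.51 and 10.45 in controls and at 10.30, 12.61 and 13.98 in Mef2c-deficient arrays. The part of these cells in the Runx3 level was not tested. Runx3 ran against Sox4 and Myb, with r of -0.874 and -0.890 over the 6 arrays.

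Runx1 and Runx3 each have a distal promoter in the RefSeq table, shown because they hold a feature in common although the mean levels of the genes differed in opposite directions. The Runx1 window spans chr16:92826025-92826324, minus strand, and the Runx3 window spans chr4:135120395-135120694, plus strand, in GRCm38.p6. The capitals mark RUNX matches (TGTGGT or TGCGGT, read here on the other strand as ACCACA), E-boxes, and in Runx1 also MYB matches, of which CAACTG is an E-box as well.
Runx1 promoter: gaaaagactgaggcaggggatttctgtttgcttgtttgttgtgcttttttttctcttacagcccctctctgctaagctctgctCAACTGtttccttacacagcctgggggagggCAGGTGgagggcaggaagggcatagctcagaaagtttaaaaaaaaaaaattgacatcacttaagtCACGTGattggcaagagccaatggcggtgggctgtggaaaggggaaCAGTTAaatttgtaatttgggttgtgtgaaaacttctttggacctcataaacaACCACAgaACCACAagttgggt
Runx3 promoter: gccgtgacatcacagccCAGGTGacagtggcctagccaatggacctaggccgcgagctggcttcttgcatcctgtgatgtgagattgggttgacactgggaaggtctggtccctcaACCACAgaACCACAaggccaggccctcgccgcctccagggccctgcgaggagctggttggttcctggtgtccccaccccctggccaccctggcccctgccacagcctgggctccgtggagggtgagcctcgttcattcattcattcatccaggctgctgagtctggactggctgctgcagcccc
In both, a pair of RUNX matches lay 2 bases apart. The pair was looked for in all windows after the sequences had been seen, and 9 of 32851 windows (0.0274%) held it, of 9 genes, with those of Runx1, Runx2 and Runx3 among them, whereas a single RUNX match was in 22.4% of windows. The 3 Runx windows shared a run of 18 bases, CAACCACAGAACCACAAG, as their longest stretch in common. It lies after the start of transcription in Runx1 and Runx2 and before it in Runx3.

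Gfi1 was at 13.95, 13.36 and 12.88 in controls and at 14.00, 13.46 and 9.28 in Mef2c-deficient arrays. Replicates 1 and 2 of the Mef2c-deficient group lay within or just above the range of the controls, and replicate 3 was far below every other array. The mean of Gfi1 was 13.40 ± 0.53 in controls and 12.25 ± 2.59 in Mef2c-deficient cells (SD, n = 3 each). The difference was -1.15 (SE 1.14), 2.22-fold in base 2 or 1.74-fold in base e, with an unadjusted p of 0.346 and an adjusted p of 0.484. Without Mef2c-deficient replicate 3 the sign turned, to 0.34 (unadjusted p = 0.416). Granulocyte precursors, in which Gfi1 is known to be on, had their highest marker levels in that same array, and their part in the Gfi1 level was not tested.

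**Figure D2:**
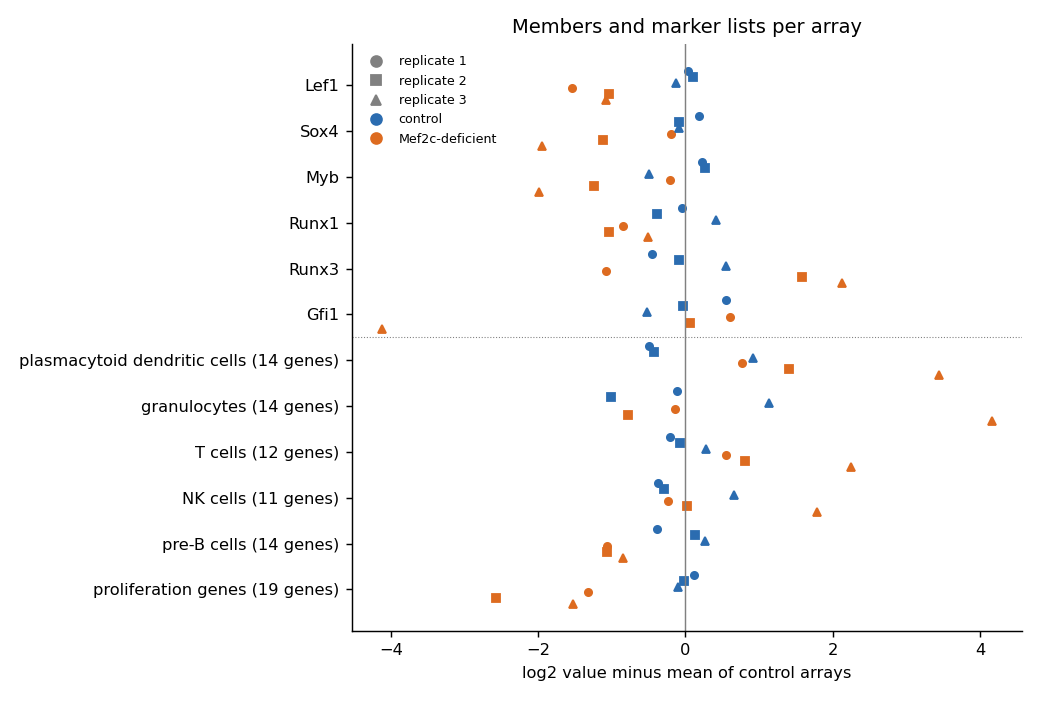
Level of each member (above the dotted line) and mean level of marker and proliferation lists (below it) in each array, as log2 minus the mean of the 3 control arrays (x axis), with controls in blue, Mef2c-deficient arrays in orange and a symbol for each replicate number. Mef2c-deficient replicate 3 (orange triangles) is lowest for Sox4, Myb and Gfi1 and highest for Runx3 and for the dendritic, granulocyte, T-cell and NK lists. Lef1, Sox4, Runx1 and the pre-B and proliferation lists are below every control in all 3 Mef2c-deficient arrays.

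The plot of members beside marker lists sets out which arrays carried each difference. Within the Mef2c-deficient group, Sox4 and Myb had the reverse of the order of the dendritic, T-cell, NK and monocyte lists. Lef1 was lowest in replicate 1 and highest in replicate 2, as was the mature B-cell list (14.14, 15.90 and 14.45 in replicates 1 to 3). Its order was not that of the dendritic, granulocyte or T-cell list. Runx1 was highest in replicate 3 and lowest in replicate 2, as the granulocyte, erythroid, stem-cell and pre-B lists were. The proliferation list averaged 13.87 to 14.10 in controls and 12.65, 11.41 and 12.45 in Mef2c-deficient replicates 1 to 3, with 19 of 19 genes lower. Cenpf, a centromere protein of dividing cells, had a difference of -3.18 (adjusted p = 0.0745). The list was lowest in Mef2c-deficient replicate 2, where Runx1 was also lowest, while Sox4, Myb and Gfi1 were lowest in replicate 3 and Lef1 in replicate 1. The part of cell division in the members' levels was not tested.

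**Figure D3:**
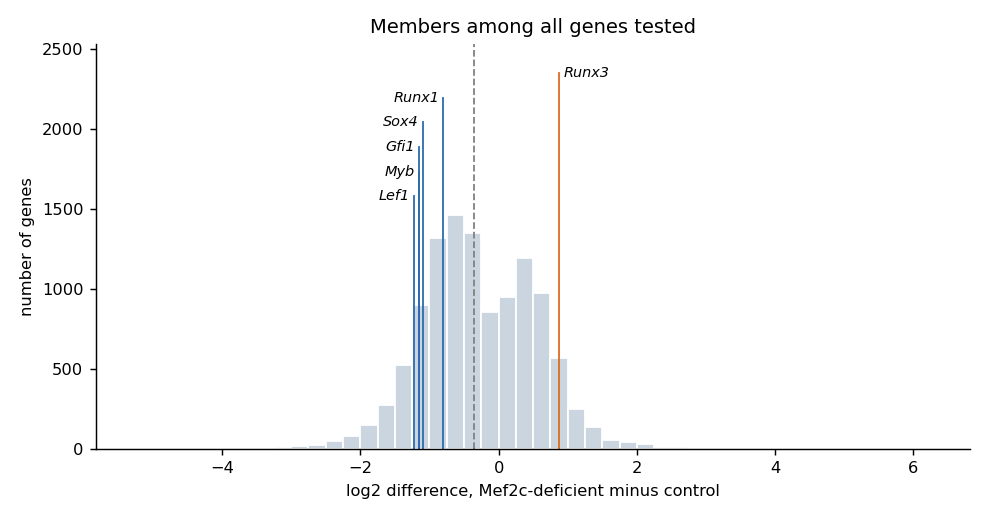
Number of genes (y axis) by log2 difference, Mef2c-deficient minus control (x axis, bins of 0.25), for the 11271 genes tested, with the median (-0.36) as a dashed line and the 6 members as vertical lines, blue where lower and orange where higher. Lef1, Myb, Gfi1, Sox4 and Runx1 lie between -1.22 and -0.80 on the lower side, and Runx3 lies at 0.88.

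None of the members was at the edge of the distribution in the plot of all genes. The shares of genes with a lower difference were 10.8% for Lef1, 13.1% for Myb, 14.9% for Sox4 and 27.2% for Runx1, and 7.0% of genes had a higher difference than Runx3. Genes with bright probe sets were lower as a class: with the genes cut into 5 classes of equal size by mean signal, the median difference was 0.32 in class 1, the dimmest, and -0.51 in class 5, to which Lef1, Sox4, Myb and Runx1 belong. Runx3 and Gfi1 were in class 4, whose median was -0.68.

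For each member, the genes with the most similar pattern were found by Pearson r over the 6 arrays, and they say only that the values run in parallel. Nearest to Lef1 were Pmpcb, a mitochondrial peptidase subunit, Atp13a3, a polyamine transporter, and Tfpt, at an r of 0.994 each, and their own differences were -0.72, -1.16 and -1.0. For Sox4 they were Rrn3 (0.998), a factor of RNA polymerase I, Accs (0.996) and Col11a2 (0.995). For Myb they were Pms1 (0.995), Med6 (0.994), a Mediator subunit, and Psmc3 (0.990), a proteasome subunit. Cpne1 (0.997), the arginine methyltransferase Prmt5 (0.995) and Cebpg (0.995) were nearest to Runx1. Runx3 was nearest to H2-Oa (0.986), part of the class II peptide loading complex, Ppm1m (0.986) and Rhbdf2 (0.984), and Gfi1 to Prpsap1 (0.998), Cyth2 (0.997) and Pde1b (0.996). Values this high were found for all 6 members.

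The relatives and partners of the members were taken from lists and are described by counts, beside the background of 20.9% for an unadjusted p under 0.05 in the lower direction. No gene of these lists passed an adjusted p of 0.05, while between 0 and 7 of each list had an unadjusted p under 0.05 in the lower direction. Each gene named below with an unadjusted p under 0.05 kept its sign in each of the 4 other scalings, but the p-values held less well. For Axin1, Hdac2, Sin3a and Pbx2 the unadjusted p was under 0.05 in 0 of the 4 scalings. For Ctnnb1, Gsk3b, Csnk1a1, Kdm1a, Pknox1 and Irf4 it was so in 1 of the 4.

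Around Lef1 and Tcf7, 23 genes of the TCF/LEF family, the beta-catenin pathway and the Groucho corepressors were tested, of which 17 were lower and 6 higher. Their median was -0.44, close to that of all genes, and 4 of 23 (17.4%) were lower at an unadjusted p under 0.05, a share near the background. Of the 23, 3 passed the filter through 1 group only, so their direction was set by it. Without them 15 of 20 were lower and 5 higher, with a median of -0.4. Ctnnb1, which encodes beta-catenin, was at 14.29, 14.19 and 14.61 in controls and 13.22, 12.68 and 13.74 in Mef2c-deficient arrays, a difference of -1.15 (SE 0.35, adjusted p = 0.128) with no overlap. Gsk3b and Csnk1a1, kinases that mark beta-catenin for destruction, had differences of -1.17 (adjusted p = 0.125) and -0.95 (adjusted p = 0.115). Axin1, their scaffold, was at -1.30 (adjusted p = 0.168). These 4 are the genes of the list that had an unadjusted p under 0.05 in this direction, so their shared direction is set by that choice. After cyclic loess 0 of the 23 had an unadjusted p under 0.05 in this direction, where 10.2% of all genes did.

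Groucho corepressors, which silence targets through LEF and TCF when beta-catenin is absent, held the 2 of 23 genes (8.7%) that were higher at an unadjusted p under 0.05, against 5.32% of all genes. Of 5 Groucho genes tested, 2 had a higher and 3 a lower mean. Among the lower ones, Tle1 (-0.95) passed the filter only through the controls and so had to be lower. Tle4 was at 11.17, 12.10 and 10.84 in controls and 12.09, 12.60 and 13.30 in Mef2c-deficient arrays, a difference of 1.29 (SE 0.45, adjusted p = 0.148). Control replicate 2 lay just above Mef2c-deficient replicate 1, so the groups overlapped. Tle5, the short member that counters the others, had a mean of 14.07 ± 0.25 in controls and 14.91 ± 0.50 in Mef2c-deficient cells, a difference of 0.84 (adjusted p = 0.178), with no overlap. Both kept an unadjusted p under 0.05 in all 4 other scalings, which raised the differences to 1.59 to 1.83 for Tle4 and 1.13 to 1.33 for Tle5. In those scalings 814 to 2278 of the 11271 genes were higher at that level, against 600 as deposited. Without Mef2c-deficient replicate 3 the values were 0.98 (unadjusted p = 0.0556) for Tle4 and 0.55 (unadjusted p = 0.0967) for Tle5. Axin1, Tle1 and Tle5 were outside the naming rule and were chosen after their values were seen.

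Among the relatives of Myb and the MuvB complex, with which B-Myb activates genes of dividing cells, 11 of 12 genes were lower, 7 of them (58.3%) at an unadjusted p under 0.05, and 8 did not overlap, against 27.1% of all genes. The median was -0.96, or -0.61 relative to all genes. Mybl1 and Mypop, a MYB-domain repressor, passed the filter only through the controls and so had to be lower. Both are counted among the 8 without overlap. Without them 5 of 10 had an unadjusted p under 0.05, with a median of -0.85. Mybl1, which encodes A-Myb, was at 8.76, 8.50 and 8.57 in controls and 7.64, 6.52 and 6.48 in Mef2c-deficient arrays, a difference of -1.73 (SE 0.38, adjusted p = 0.0934). Lin54, the DNA-binding subunit of MuvB, was at 10.21, 10.21 and 10.64 in controls and 8.80, 9.25 and 8.85 in Mef2c-deficient arrays, a difference of -1.39 (SE 0.29, adjusted p = 0.0934). In both genes all 3 Mef2c-deficient arrays were below the controls.

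Lin9, another MuvB subunit, had a difference of -1.66 (adjusted p = 0.104), and Mybl2, which encodes B-Myb and was chosen after its value was seen, had -1.0 (adjusted p = 0.129). Psip1, a chromatin reader that binds menin and the MLL complex, was at -1.34 (adjusted p = 0.108). Lin54, Lin9 and Psip1 kept an unadjusted p under 0.05 in all 4 other scalings. So did Mybl1, but its direction was set by the filter. The count of genes lower at that level was 6 of 12 after quantile normalization and after cyclic loess, where 11.1% and 10.2% of all genes were, and 4 of 12 after centring on the genes tested, where 6.48% were. Without Mef2c-deficient replicate 3 the count stayed at 7 of 12, where 2668 of all 11271 genes were lower at that level. These counts of 12 include Mybl1 and Mypop, whose direction was set by the filter. The proliferation list was lower in the same arrays, and the part of cell division in the levels of the MYB and MuvB list was not tested.

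Around Runx1 and Runx3, 8 of 9 partners were lower and 1 (11.1%) was lower at an unadjusted p under 0.05, with a median of -0.59. Cbfb, the shared partner without which Runx proteins bind DNA weakly, was at 15.62, 15.80 and 16.23 in controls and 14.97, 15.13 and 15.78 in Mef2c-deficient arrays. The groups overlapped. Between arrays of the same replicate number, a pairing taken from the data and not from the labels, the Cbfb difference was -0.66, -0.67 and -0.45. The fit with a replicate block gave Cbfb an unadjusted p of 0.0889 and an adjusted p of 0.215. The median of all genes in its signal class, class 5, was -0.51. The difference of the means was -0.59 (SE 0.34, adjusted p = 0.269). Sin3a, a scaffold of histone deacetylases, had a difference of -0.81 (adjusted p = 0.167), and the acetyltransferase Crebbp had -0.71 (adjusted p = 0.201).

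For Gfi1, the relative Gfi1b and the LSD1 corepressor complex were lower in 8 of 9 genes, 4 of them (44.4%) at an unadjusted p under 0.05, with a median of -0.86. Rcor1, the CoREST scaffold, was at 13.42, 12.98 and 13.41 in controls and 12.03, 12.29 and 10.75 in Mef2c-deficient arrays, a difference of -1.58 (SE 0.44, adjusted p = 0.115). Kdm1a, which encodes LSD1 itself, was at 13.95, 13.66 and 13.67 in controls and 12.92, 12.85 and 12.64 in Mef2c-deficient arrays, a difference of -0.95 (SE 0.27, adjusted p = 0.115). Both were low in all 3 Mef2c-deficient arrays, whereas Gfi1 was low in 1.

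Gfi1b, the relative of red cell and platelet precursors, had a difference of -1.18 (adjusted p = 0.127) and Hdac2, a histone deacetylase, -1.01 (adjusted p = 0.158). After centring on the genes tested, 1 of the 9 genes was lower at an unadjusted p under 0.05, where 6.48% of all genes were. The other 3 scalings left 2 or 3 of the 9, where 10.2% to 11.1% of all genes were lower at that level. Without Mef2c-deficient replicate 3 the count was again 4, where 2668 of the 11271 genes were lower at that level.

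SOX relatives had higher means where Sox4 had a lower one. Of 16 with a probe set, 8 were tested, and all 8 had a higher mean, with a median of 0.84, although quantile normalization and cyclic loess left 7 of 8. Sox1 and Sox12 passed the filter only through the Mef2c-deficient arrays, so they had to be higher. Without them 6 of 6 had a higher mean, with a median of 0.63, and with a filter at the 60th percentile 1 gene was left. Sox10, a neural crest factor, was at 8.76, 8.78 and 8.15 in controls and 9.62, 9.62 and 9.64 in Mef2c-deficient arrays, a difference of 1.06 (SE 0.29, adjusted p = 0.112). Sox15 was at 7.66, 7.46 and 7.63 in controls and 8.33, 8.35 and 9.12 in Mef2c-deficient arrays, a difference of 1.01 (SE 0.32, adjusted p = 0.132). Sox10, Sox15, Sox1 and Sox12 lay in signal classes 1 and 2, where the medians of all genes were 0.32 and 0.06, so these are probe sets with little signal.

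MEIS, PBX and HOX factors, the company of Meis1, were mixed, with 3 of 9 lower and 6 higher. Among the higher genes, 1 passed the filter only through the Mef2c-deficient arrays and so had to be higher. Without it 3 of 8 were lower and 5 higher. Pknox1, a relative of Meis1, had a difference of -0.98 (adjusted p = 0.130), and Pbx2, a partner of HOX and MEIS proteins, had -0.89 (adjusted p = 0.162). Meis3 was at 9.50, 9.33 and 9.27 in controls and 10.01, 9.93 and 9.86 in Mef2c-deficient arrays, a difference of 0.56 (SE 0.26, adjusted p = 0.206). The groups did not overlap for Meis3, and its unadjusted p was 0.0626.

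**Figure D4:**
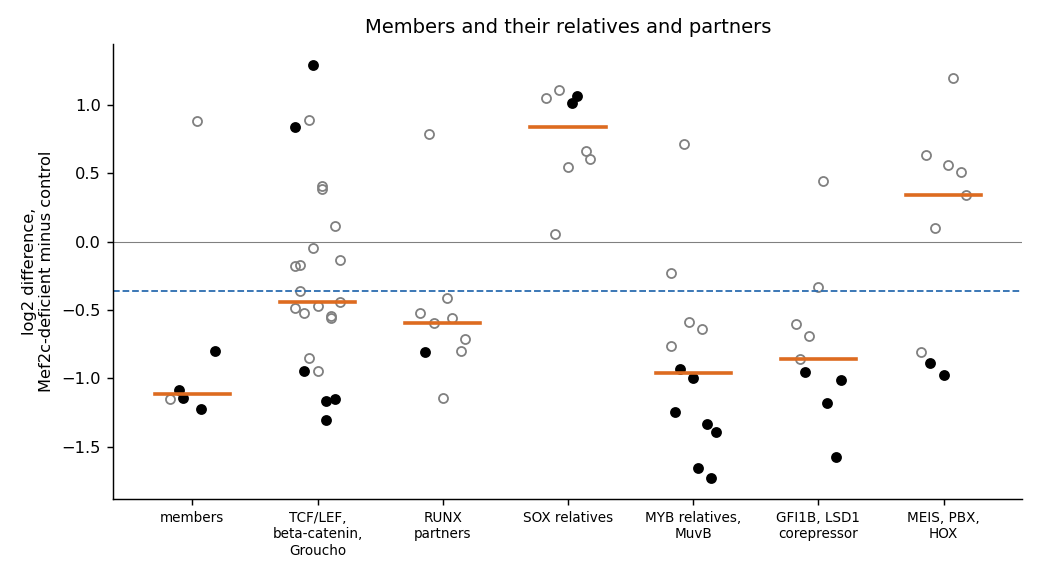
Log2 difference, Mef2c-deficient minus control (y axis), of each gene tested among the members and the lists of their relatives and partners (x axis). Filled points have an unadjusted p under 0.05, the orange bar is the median of the list, and the dashed blue line is the median of all genes tested (-0.36). The MYB and MuvB list has a median of -0.96 and the SOX relatives one of 0.84, while the TCF/LEF list, at -0.44, lies close to all genes. Without the genes that passed the filter through 1 group only, these medians were -0.85, 0.63 and -0.4, in that order.

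Factors of the same progenitor and early B-cell programme were looked at beside the members. Of 13 other stem and progenitor factors, 8 were lower and 5 higher, and 0 had an unadjusted p under 0.05 in either direction. Erg had a difference of -1.04 (adjusted p = 0.270) and Gata2, which passed the filter only through the Mef2c-deficient arrays, of 0.64 (adjusted p = 0.192). The markers of stem and multipotent cells were near the low end of the scale, at 7.42 to 7.67 in controls and 7.76 to 8.33 in Mef2c-deficient arrays, with 6 of 11 below the filter.

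E proteins are the partners that switch on the B lineage together with Ebf1. Of 6 E protein and Id inhibitor genes, 2 had a lower and 4 a higher mean, with a median of 0.22. Id4 passed the filter only through the Mef2c-deficient arrays, so it had to be higher. Without it 2 were lower and 3 higher, with a median of 0.1. Tcf12, which encodes HEB, was at 15.42, 15.33 and 15.50 in controls and 14.35, 14.12 and 14.26 in Mef2c-deficient arrays, a difference of -1.18 (SE 0.26, adjusted p = 0.0934). Its size was close to that of Lef1, and all 3 Mef2c-deficient arrays were well below the controls. Tcf3, which encodes E2A, was at 16.88, 16.62 and 17.47 in controls and 16.35, 15.52 and 15.26 in Mef2c-deficient arrays, a difference of -1.28 (SE 0.39, adjusted p = 0.129). Of 10 B-lineage commitment factors, 2 (20.0%) were lower at an unadjusted p under 0.05, a share near the background, and the median was -0.45. Those 2 were Ebf1 and Irf4. Ebf1 had a difference of -1.15 (adjusted p = 0.135) and Irf4, a factor of the pre-B to immature B step, of -1.32 (adjusted p = 0.161). Irf8, known from dendritic cells as well as B cells, was at 14.58, 14.91 and 15.66 in controls and 14.99, 15.84 and 17.14 in Mef2c-deficient arrays, a difference of 0.94 (adjusted p = 0.290).

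Ets factors, which often share sites with Runx1, were lower in 12 of 13 genes, 5 of them (38.5%) at an unadjusted p under 0.05. Elk3 had a difference of -1.37 (adjusted p = 0.0950) and Etv5 of -1.37 (adjusted p = 0.140). Ets2 had -1.97 (adjusted p = 0.0933), from means of 8.26 to 6.29, and passed the filter only through the controls, so it had to be lower. Without it 4 of 12 had an unadjusted p under 0.05. After cyclic loess the median of the list was -0.09, against -0.04 for all genes.

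**Figure D5:**
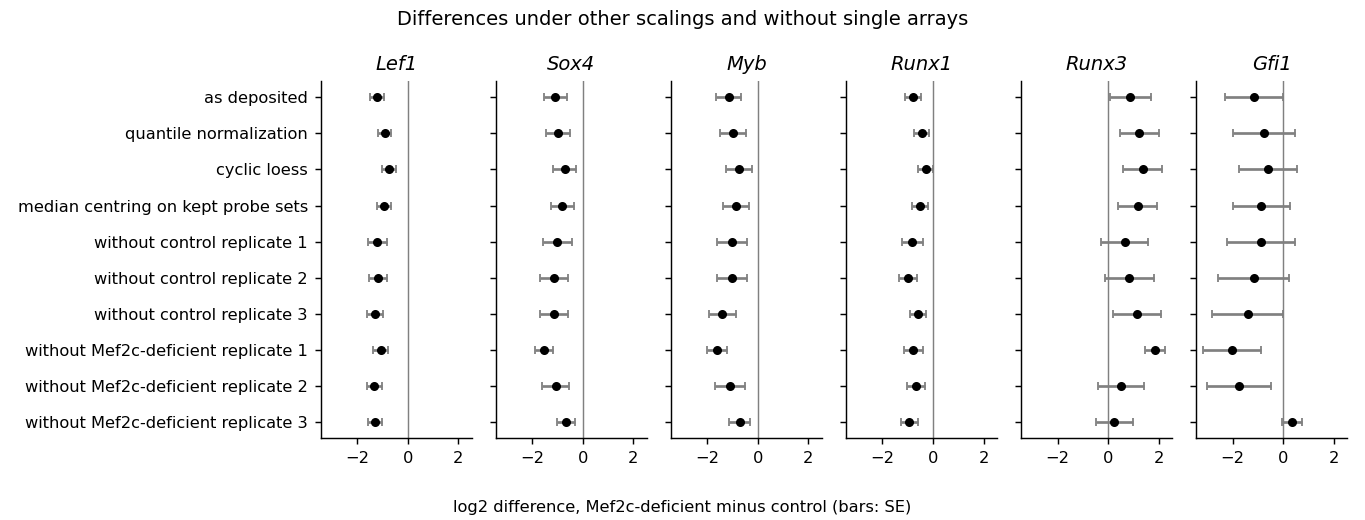
Log2 difference of each member, Mef2c-deficient minus control (x axis, with SE as bars), as deposited, under 3 other scalings and without each array in turn (y axis). Lef1 stays below 0 by more than its SE in every row, Runx1 moves towards 0 with the scaling, and the Gfi1 difference is above 0 only without Mef2c-deficient replicate 3.

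The plot of differences by setting shows which members rest on the scaling and which on 1 array. Lef1 ranged from -1.31 to -0.73 over 21 alternatives, with an unadjusted p of 0.000824 to 0.0386. Runx1 ranged from -0.99 to -0.28, Sox4 from -1.53 to -0.63 and Myb from -1.61 to -0.68, all without a change of sign. The Runx3 difference lay between 0.25 and 1.86. With 1 array left out at a time, Lef1 kept an unadjusted p under 0.05 in 6 of 6 fits. Runx1 kept it in 2 of 6 (without control replicate 2 or Mef2c-deficient replicate 3), Myb in 2 of 6 (without control replicate 3 or Mef2c-deficient replicate 1) and Sox4 in 1 of 6 (without Mef2c-deficient replicate 1).

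All 9 members, including the 3 that were not analysed on the arrays, had promoter windows in the RefSeq table, 16 in all. None of the 16 held a match to the MEF2 motif, which was in 3.19% of all windows, or to the TCF/LEF letters CTTTGAA and CTTTGAT, which were in 8.65%. These shares are low, and the windows cover only 300 bases at each start, so the counts say nothing about whether Mef2c or Lef1 acts on these genes.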

How the data were processed

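RNA of sorted pre-B cells was measured on 6 arrays, 3 of control and 3 of Mef2c-deficient mice, grouped by the genotype in the labels. What the authors deposited is a linear intensity for each of 23913 probe sets in each array. By the study's methods these came from robust multiarray averaging, with background adjustment and quantile normalization, and probes were left out by detection calls. The sources used here name no versions. The deposited values were log2-transformed here with no offset.

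Probe sets with exactly 1 symbol in the platform annotation, which can be old, were used (17690), and 17539 of them were matched by gene identifier to a RefSeq table with 0 symbols changed. The filter kept probe sets with a mean log2 over 7.26, the 40th percentile in the table, and each gene was represented by its brightest probe set. The number of columns that belong to no sample of the series was 0. Mef2c and some genes of the lists were not analysed here.

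The comparison used limma 3.58.1 under R 4.3.3, with a linear model on group alone, default eBayes and two-sided p-values, with Benjamini-Hochberg adjustment over all genes kept and a threshold of 0.05. The fit had been tested on simulated data. The members, the gene lists and the motifs were chosen with earlier results of these data known, so lists are described by counts and medians and not tested. Text names the members, the genes (up to 4) of smallest unadjusted p in each partner list, the 2 brightest markers of a cell type and the 3 genes nearest to each member. Tle1, Tle5, Axin1, Mybl2, Mypop, Mpo, Ncr1, Sdc1 and Slamf7 fall outside this rule and were chosen after their values were seen.

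Deviations from the group mean correlated across genes between arrays of the same replicate number, at 0.348, 0.226 and 0.373, against -0.309 to 0.129 between different numbers. Since each exceeded 0.1, the numbers were taken to pair the arrays, although the labels do not say so, and a fit with a replicate block was run beside the unpaired one. Other filters, probe set rules, scalings, an offset, other variance models, array weights, the methods' t-test and leaving out each array were tried. Centring on the median of the genes tested was added after the data had been seen. Promoter windows came from RefSeq (GRCm38.p6), for 27025 genes, and were searched on both strands.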

Additional observations from a re-analysis of the deposited data

How the results depend on the processing

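Of the 21 alternatives, Lef1, Sox4, Myb and Runx1 stayed lower and Runx3 stayed higher in every one, and Gfi1 ranged from -2.03 to 0.34 when 1 array was left out, turning sign without Mef2c-deficient replicate 3. The count of members lower at an unadjusted p under 0.05, 4 as deposited, was 1 after quantile normalization, cyclic loess and both centrings on the median, 2 with the methods' t-test, and 1 to 3 when 1 array was left out. The count of members lower with groups that did not overlap, 3 as deposited, was 1 under these 4 scalings and 3 or 4 without 1 array. The count higher at an unadjusted p under 0.05 was 0 to 1 when 1 array was left out, the 1 being Runx3 without Mef2c-deficient replicate 1. Array weights, which gave control replicate 1 a weight of 7.73 and Mef2c-deficient replicate 3 one of 0.248, brought 1 member, Lef1, to an adjusted p of 0.0261 with a difference of -1.28, against 0.0629 to 0.340 in the alternatives that did not pass. The paired fit, with a replicate block, gave Lef1 an adjusted p of 0.0973, Sox4 0.132, Myb 0.115 and Runx1 0.145, and no call of a member changed.

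Over all genes, 2 were called lower and 0 higher at an adjusted p of 0.05. The count called was 0 under each of the 4 scalings, with the block, with the t-test and without any 1 control array. It was 1001 lower and 153 higher with array weights, 3 lower with no filter, and, leaving out an array of the Mef2c-deficient group, 12 lower (replicate 1), 1 lower (replicate 2) or 154 lower and 5 higher (replicate 3). The unadjusted p was under 0.05 for 2353 lower and 600 higher genes as deposited, 1248 and 814 after quantile normalization, 1148 and 931 after cyclic loess, 1211 and 1577 after centring on kept probe sets, and 730 and 2278 after centring on the genes tested. There were 2680 and 1445 with no filter, 1969 and 249 with the 60th percentile, 2940 and 1005 with array weights, and 1392 to 2668 and 239 to 797 without 1 array.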

Other observations

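Markers of mature B cells, used above only for their order over the arrays, did not share the direction of the pre-B markers. Of 9 genes, 6 had higher and 3 lower means, with a list mean of 14.19 to 15.09 in controls and 14.14 to 15.90 in Mef2c-deficient arrays. Cd74, the invariant chain of class II molecules, was at 18.50 to 19.31 in controls and 18.94 to 19.73 in Mef2c-deficient arrays, and its adjusted p was 0.460. Plasma cell markers averaged 12.42 to 12.67 in controls and 12.12 to 12.39 in Mef2c-deficient arrays, and 5 of 8 had a higher and 3 a lower mean. Mzb1, a chaperone of antibody-making cells, had a difference of 0.47 (adjusted p = 0.334). The 2 genes of this list with an unadjusted p under 0.05 were lower: Sdc1, a surface proteoglycan, at -2.36 (adjusted p = 0.0781), and Slamf7, a surface receptor, at -2.15 (adjusted p = 0.0934). Erythroid markers lay at 8.89 to 9.19 and 8.85 to 9.81, and 7 of 9 had a higher mean. The 2 brightest, Hba-a2, an alpha globin, and Car2, a carbonic anhydrase, were the 2 with a lower mean, at differences of -0.48 (adjusted p = 0.259) and -1.48 (adjusted p = 0.194). Monocyte and macrophage markers were at 8.08 to 8.54 in controls and 8.30 to 9.97 in Mef2c-deficient arrays. The top value was that of Mef2c-deficient replicate 3, where Lyz2, a lysozyme of myeloid cells, was at 17.11 against 10.20 to 14.24 in the other 5 arrays.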
